A study of Homo sapiens with 24 samples.

Results

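RORA and 8 core genes of the circadian clock were examined by RNA-seq in human colorectal cancer cells: the nuclear receptor gene RORA, the REV-ERB receptor genes NR1D1 and NR1D2, the activator gene CLOCK, the period genes PER1, PER2 and PER3, and the cryptochrome genes CRY1 and CRY2. They are 9 of the 33382 genes listed in the gene tables, were chosen by name, with earlier results of these data known, and all 9 passed the filter on low counts. RORA had been singled out by the study as a target of TET2, possibly with these samples in view, so its direction with the TET2 construct is not independent of that choice. The 24 libraries came from SW480 cells, a line from a primary colorectal adenocarcinoma, and SW620 cells, a line from a metastasis of the same patient's tumour. Each line carried either an empty lentiviral vector or a vector for Tet2CD, the catalytic domain of TET2, an enzyme that oxidises methylated cytosine in DNA. Cells that had taken up either vector were kept as pools under 5 µg/ml puromycin, so every group, controls included, had been infected and selected. The cells then received DMSO (the solvent control), 4 ng/ml TGFB1, or 1 µM RepSox (which blocks ALK5, the kinase of the TGF-beta receptor complex) for 24 h, as the labels give it. This made 12 groups of 2 libraries. Whether the 2 libraries of a group were grown from separately infected cells is not stated, so p-values measure the spread between libraries, which may be technical.

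The clock is a feedback loop of transcription. CLOCK pairs with BMAL1 (gene ARNTL) and switches on the period, cryptochrome and REV-ERB genes through E-box motifs in DNA. The period and cryptochrome proteins then hold CLOCK and BMAL1 back, while the REV-ERB receptors repress ARNTL and the ROR receptors, RORA among them, activate it from the same DNA elements. In gut epithelium and other tissues these transcripts rise and fall over the day. The cells were harvested at 1 time point and the sources used here give neither the hour nor any synchronising step, so a change of level and a shift of phase cannot be told apart in what follows. In bulk RNA, fewer cells expressing a gene and less RNA per cell cannot be told apart either.

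Total counts ranged from 2146123 to 4410567 per library (median 3653712). CPM here means counts relative to library size after TMM scaling, and a gene was called when its edgeR quasi-likelihood test had an adjusted p (Benjamini-Hochberg, over 15302 genes) under 0.05. The Tet2CD labels held: TET2 ran from 270 to 2640 CPM in the 12 Tet2CD libraries and from 10.3 to 25.0 CPM in the 12 vector libraries. Of 9 colon epithelium markers, 6 exceeded 1 CPM in every library of both lines, KRT8 and KRT18 among them, whereas KRT20, CDX1 and CEACAM5 were at or near 0 in SW480 cells. Among the SW480 Tet2CD libraries, the 3 numbered replicate 1 stood apart. The log2 differences between the libraries of a group had an SD of 0.711 to 1.151 over genes in those 3 groups and of 0.422 to 0.556 in the other 9. In these 3 libraries, ribosomal protein genes took 10.1 to 15.0% of counts, against 5.74 to 9.42% in the other 21, and the mean GC content of counted genes was 52.8 to 53.9%, against 50 to 52.1%. RORA, NR1D2, CLOCK, PER2, PER3 and CRY1 were lower in each of these libraries than in its partner, with a median log2 difference of -0.85 for RORA, -1.17 for NR1D2, -0.78 for CLOCK, -0.32 for PER2, -1.86 for PER3 and -2.04 for CRY1. NR1D1 was higher in each of them, with a median difference of 0.33. TET2, too, was lower than in the partner: 894 against 1849 CPM (DMSO), 827 against 2640 CPM (TGFB1), 270 against 1690 CPM (RepSox). These libraries also had the 3 lowest totals of all 24, at 2694170, 2713878 and 2146123 counts. For the 9 genes, the SW480 Tet2CD comparisons below are therefore also given without these 3 libraries where that changed a call. Leaving them out thus also changes the construct level and the depth compared, and the part of either was not tested. Each gene's spread was estimated over all 24 libraries. These 3 therefore also enter the SE, interval and adjusted p of every other comparison, those within SW620 cells included.

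The promoters are shown first, because the clock acts on its own genes through short DNA motifs. RefSeq start sites (GRCh38.p14) matched all 9 genes, with 13 promoters between them, and the 250 bases before each start were searched on both strands. E-boxes (CACGTG) or the related E-prime-boxes (CACGTT) lay in at least 1 window of 7 of the 9 genes, whereas 12.7% of the 27305 genes with a promoter in the set had one. A CACGTG was in the windows of PER1 and NR1D2 (7.73% of genes), and a CACGTT in those of NR1D1, CLOCK, PER2, CRY1 and CRY2 (5.53% of genes). The D-box TTANGTAA was in windows of NR1D2 and PER3 (2.48% of genes). The receptor core element AGGTCA was in windows of PER1 and CRY2 (14.6% of genes), and the NTAGGTCA form that ROR and REV-ERB receptors share was in that of CRY2 alone among the 9 (2.0% of genes). TGACGTCA, the cyclic AMP element, and GTCTAGAC, a SMAD-binding palindrome, were in none of the 9, and were in 2.03% and 0.231% of all genes. The following 26-base stretches, read 5′ to 3′ along the gene's own strand with the motif in capitals (AACGTG is CACGTT read on the opposite strand), show at least 1 matched motif of each gene that has one, and not every match counted above.
PER1, chr17:8152562-8152587, minus strand: cacccaggtcCACGTGcgcccgtgtg
NR1D2, chr3:23945956-23945981, plus strand: cgggcggggaCACGTGaggccgctcg
NR1D2, chr3:23946006-23946031, plus strand: gccgcagggaCACGTGggggcggggg
NR1D1, chr17:40100742-40100767, minus strand: gcaagagctcAACGTGccggctgttg
PER2, chr2:238288792-238288817, minus strand: cgcgcgcggtCACGTTttccactatg
CRY1, chr12:107093623-107093648, minus strand: acacttcagaAACGTGaggtgccggt
CLOCK, chr4:55546104-55546129, minus strand: accactcgggCACGTTtggagcagcg
PER3, chr1:7784105-7784130, plus strand: gcccgcgcgTTATGTAAcgcgccccg
CRY2, chr11:45847400-45847425, plus strand: tgcggcgtcATAGGTCActgggcggg
A match is a description of the letters in the window and not a measured binding site.

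RORA differed from the other 8 in these windows. Its RefSeq promoter held none of the 7 motifs, 40.0% GC and 1 CpG in 250 bases, while the median over all 35116 promoters was 58.0% GC and 11 CpG. The windows of the other members held 4 to 50 CpG, the fewest at the first CRY2 start and the most at PER2. The RORA window lies inside the gene's span, which runs over chromosome 15 from 60488284 to 61229319 on the minus strand, and overlaps no annotated RORA exon. It belongs to an internal start, and starts of other RORA transcripts were not searched. Lying inside the gene's span was not particular to RORA. That also held for the windows of PER1, PER2 and CRY1 and the second windows of NR1D2, CLOCK and CRY2. All 250 bases of the CRY1 window were annotated exon, as were 229 of the first CLOCK window, 136 of the NR1D1 window and 126 of the second CRY2 window. The whole RORA window is given because RORA is the gene on which most of the comparisons below turn.
RORA, chr15:60627531-60627780, minus strand: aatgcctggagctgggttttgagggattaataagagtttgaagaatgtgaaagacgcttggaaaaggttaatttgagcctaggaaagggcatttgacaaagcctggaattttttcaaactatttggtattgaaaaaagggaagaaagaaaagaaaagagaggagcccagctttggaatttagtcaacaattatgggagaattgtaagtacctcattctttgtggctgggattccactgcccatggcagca

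RORA had the largest difference of the 9 between the lines, and the largest TGFB1 response in SW620 cells. With DMSO, the SW480 vector libraries had 30.2 and 35.1 CPM and the SW480 Tet2CD libraries 35.3 and 52.2 CPM. With TGFB1 these were 69.9 and 47.7 CPM in vector cells and 28.6 and 63.0 CPM in Tet2CD cells, and with RepSox 22.4 and 36.6 CPM and 26.0 and 47.3 CPM. All 12 SW480 libraries therefore lay between 22.4 and 69.9 CPM, and neighbouring SW480 groups overlapped. In SW620 cells the DMSO libraries had 4.02 and 1.17 CPM with vector and 3.47 and 5.36 CPM with Tet2CD, and the RepSox libraries had 4.12 and 3.90 CPM and 3.23 and 3.51 CPM. The 4 SW620 libraries with TGFB1 had 17.9 and 18.0 CPM (vector) and 15.8 and 15.3 CPM (Tet2CD). In CPM, these 4 libraries lay above every other SW620 library and below every SW480 library. In TPM, which takes account of transcript length, they had 7.63 to 10.1 and overlapped the SW480 libraries (5.75 to 31.9 TPM). In raw terms, RORA had 4 to 23.35 expected counts in the SW620 libraries without TGFB1 and 45.04 to 80.42 in those with it, so the low values are known only coarsely.

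**Figure D1:**
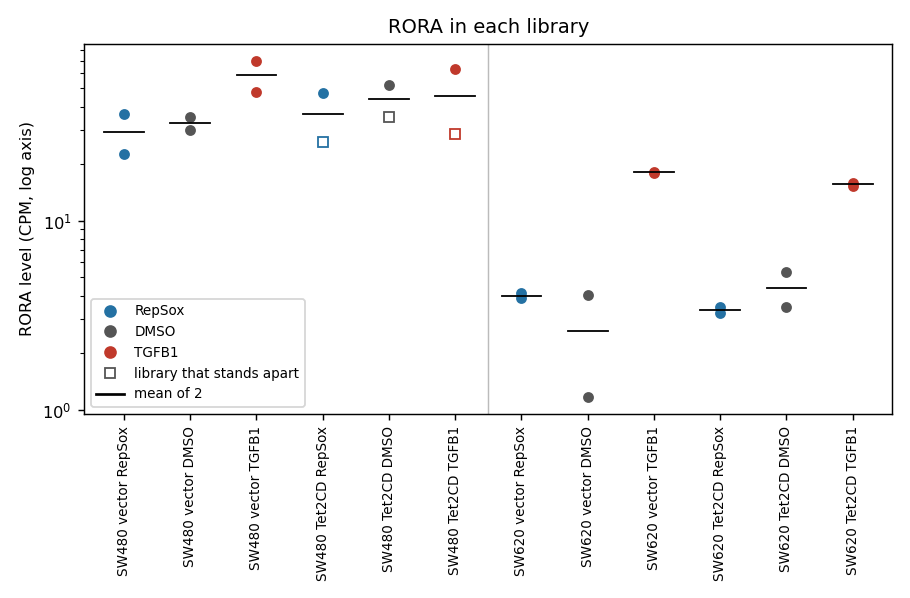
RORA level in CPM (log axis) in each of the 24 libraries, by line, construct and treatment; colours mark the treatment, black bars the mean of 2 libraries, and open squares the 3 SW480 Tet2CD libraries that stood apart. SW620 libraries with TGFB1 sit between 15.3 and 18.0 CPM, above the other SW620 libraries (1.17 to 5.36 CPM) and below the SW480 libraries (22.4 to 69.9 CPM).

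TGFB1 raised RORA in SW620 cells, and raised PER1 in both lines. The comparison asks how the clock genes answer to the cytokine that drives epithelial cells towards a mesenchymal state, averaged over vector and Tet2CD cells. In SW620 cells RORA was 16.7 ± 1.42 CPM with TGFB1 and 3.51 ± 1.75 CPM with DMSO (SD, n = 4 each), a fold of 4.90 (95% interval 2.94 to 8.17, log2 2.29, SE 0.35, adjusted p = 0.000321). The same difference was 2.03 in the lower library numbers and 2.45 in the higher ones, 2 sets that each hold all 12 groups once. On the scale of log2(TPM + 1), which takes account of transcript length, it was 1.33 (adjusted p = 0.0406, limma). In SW480 cells RORA had 52.3 ± 18.3 CPM with TGFB1 and 38.2 ± 9.59 CPM with DMSO, and was not called (0.46, SE 0.26, adjusted p = 0.518). The response of RORA differed between the lines by -1.83 on the log2 scale (SW480 minus SW620, SE 0.44, adjusted p = 0.0401), a comparison in which 2.07% of all genes were called and RORA was the only member. That call was lost in 17 of 24 fits that left out 1 library (adjusted p 0.0106 to 0.146, difference -2.39 to -1.5) and on the TPM scale (-0.86, adjusted p = 0.698), while without the 3 libraries that stood apart the difference was -1.71 (SE 0.33, adjusted p = 0.00301). The SW620 response itself held in all 24 (1.97 to 2.85).

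PER1, whose protein restrains CLOCK and BMAL1 and whose transcript is known to answer quickly to many signals, rose in both lines. In SW620 cells it had 63.2 and 66.6 CPM in vector cells with TGFB1 against 34.0 and 39.9 CPM with DMSO, and 60.8 and 65.1 CPM in Tet2CD cells against 43.7 and 41.7 CPM. No SW620 library with TGFB1 overlapped one with DMSO, and the rise was 1.61-fold (95% interval 1.33 to 1.94, log2 0.68, SE 0.13, adjusted p = 0.00182). In SW480 cells it had 39.7 and 46.3 CPM in vector cells with TGFB1 against 26.4 and 21.5 CPM with DMSO, and 29.0 and 39.7 CPM in Tet2CD cells against 23.5 and 19.9 CPM. The SW480 rise was 1.70-fold (1.39 to 2.07, log2 0.76, SE 0.14, adjusted p = 0.00999), and the groups again did not overlap. It was 0.44 in the lower library numbers and 1.04 in the higher ones. Without the 3 SW480 Tet2CD libraries that stood apart it was 0.92. The difference between the lines was 0.08 (95% interval -0.32 to 0.47). The SW480 call was lost without replicate 2 of SW480 Tet2CD with DMSO (adjusted p = 0.0608), of SW480 vector with DMSO (0.0752) or of SW480 vector with TGFB1 (0.0631), and when SW480 libraries were fitted alone (0.74, adjusted p = 0.236). On the TPM scale PER1 was called in neither line (SW480 0.53, adjusted p = 0.675; SW620 0.57, adjusted p = 0.317).

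Of the other members, PER2 (0.50, SE 0.18, adjusted p = 0.0721), CRY2 (0.45, SE 0.16, adjusted p = 0.0613) and NR1D1 (0.47, SE 0.17, adjusted p = 0.066) had higher values with TGFB1 in SW620 cells but did not pass. In all, 2 of 9 members were called in SW620 cells, both higher, where 15.6% of all genes were called (8.31% higher, 7.27% lower), and 1 of 9 in SW480 cells, where 1.05% were. When the 3 SW480 Tet2CD libraries were left out of the common fit, PER2, CRY2 and NR1D1 passed as well (adjusted p = 0.00969, 0.0196 and 0.0237), making 5 of 9 higher in SW620 cells, but 35.6% of all genes were then called. The SW620 values themselves hardly moved (PER2 0.47, CRY2 0.43, NR1D1 0.45). The median over the 9 members was 0.45 in SW620 and 0.33 in SW480 cells, and over all genes tested 0.01 and 0.02. NR1D2, CLOCK, PER3 and CRY1 had SW620 values between -0.12 and -0.02 with intervals that spanned 0, the widest for PER3 (-1.13 to 0.89). These intervals rest on the spread over all libraries, the 3 that stood apart included, and not on SW620 libraries alone.

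The Tet2CD construct gave no detectable difference in the SW620 response of RORA. The rise was 2.74 in vector cells and 1.73 in Tet2CD cells on the log2(CPM + 0.5) scale, and the fitted difference of the 2 responses was -0.99 (SE 0.72, 95% interval -2.51 to 0.53, adjusted p = 1). No gene at all was called in that comparison (0.0% of 15302, with 201 genes at an unadjusted p under 0.05), nor for the RepSox response of SW480 cells (0.0%, 294 genes), and edgeR gave no member an unadjusted p under 0.05 and DESeq2 called none in either. SPARC, a matrix protein gene that the study places downstream of RORA, did not follow RORA here: it had 0 counts in all 4 SW620 vector libraries with TGFB1 or DMSO and 0 to 2 counts in the 4 such Tet2CD libraries, which is at or under a floor of 3 counts.

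RepSox lowered PER2 in SW620 cells. PER2, the second repressor of the loop, had 27.5 and 23.5 CPM in vector cells with DMSO and 14.9 and 13.5 CPM with RepSox, and in Tet2CD cells 19.9 and 29.8 CPM with DMSO and 12.9 and 16.0 CPM with RepSox. Every RepSox library lay below every DMSO library. The fall was 1.75-fold (log2 -0.81, SE 0.19, 95% interval -1.21 to -0.41, adjusted p = 0.0198). It was lost without any 1 of 5 SW620 libraries (adjusted p up to 0.127, value -0.96 to -0.66 over all 24 leave-outs). PER1 was also lower without overlap, at 25.2 and 29.8 CPM (vector) and 29.8 and 29.6 CPM (Tet2CD) with RepSox, but lay just outside the threshold (-0.48, SE 0.13, adjusted p = 0.0508). It passed with relative log expression scaling (0.0397), DESeq2 (0.0128), a term for the library-number set (0.0438), SW620 libraries alone (0.00266) or without the 3 SW480 Tet2CD libraries (0.00336). RORA had 3.69 ± 0.396 CPM with RepSox (n = 4) and was not called (0.12, 95% interval -0.75 to 0.99). So 1 of 9 members was called, where 4.69% of all genes were. In SW480 cells none was (0 of 9, with 0.0% of all genes called; no member and 433 genes had an unadjusted p under 0.05, and DESeq2 called no member either). PER1 and PER2 had RepSox responses that were 0.69 and 0.83 higher in SW480 than in SW620 cells on the log2 scale, with adjusted p = 0.119 and 0.222. With all libraries edgeR called no member in that comparison (1.03% of all genes were called), and DESeq2 called PER1 (0.73, adjusted p = 0.0306). Without the 3 SW480 Tet2CD libraries the edgeR value of PER1 was 0.84.

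Setting TGFB1 against RepSox, the ends of the range of TGF-beta signalling tested, gave the clearest pattern in SW620 cells: RORA and 3 repressor genes of the loop, PER1, PER2 and CRY2, were called higher with TGFB1, and none of the 9 was called lower. CLOCK (-0.26), PER3 (-0.28) and CRY1 (-0.09) had lower values that did not pass. PER3 did not overlap between these groups (4.95 to 7.12 CPM with TGFB1, 7.21 to 9.02 CPM with RepSox; adjusted p = 0.701). PER1 had 63.9 ± 2.48 CPM with TGFB1 and was 2.24-fold higher (log2 1.16, SE 0.13, adjusted p = 8.38e-06). PER2 had 32.3, 38.9, 36.1 and 34.9 CPM with TGFB1 against 14.9, 13.5, 12.9 and 16.0 CPM and was 2.47-fold higher (1.31, SE 0.19, adjusted p = 7.61e-05). CRY2, a cryptochrome that binds the period proteins, had 45.5, 41.6, 47.3 and 34.6 CPM against 28.3, 25.9, 26.8 and 30.3 CPM and was 1.52-fold higher (0.60, SE 0.16, adjusted p = 0.00833). RORA was 4.50-fold higher (2.17, SE 0.34, adjusted p = 0.000177). In each of these 4 genes every TGFB1 library exceeded every RepSox library, and the share of all genes that did so was not counted. All but CRY2 held in each of 24 leave-one-out fits, and CRY2 missed in 1 (adjusted p = 0.0512 without replicate 1 of SW620 Tet2CD with TGFB1). On the TPM scale RORA (1.65), PER1 (1.18) and PER2 (1.23) passed and CRY2 did not (0.54, adjusted p = 0.257). The other cryptochrome, CRY1, lay between 18.2 and 32.6 CPM in the SW620 libraries and was not called (-0.09, 95% interval -0.97 to 0.79). The CRY1 and PER3 tests rest on a spread over all 24 libraries, the 3 SW480 Tet2CD libraries that stood apart included. Without those 3, CRY1 was -0.10 and PER3 -0.29 in this SW620 comparison. Over all genes 29.1% were called in this comparison, 14.5% higher and 14.5% lower, against 4 and 0 of the 9 members. This comparison shares its TGFB1 and RepSox libraries with the comparisons against DMSO above.

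In SW480 cells only PER1 was called between TGFB1 and RepSox (0.55, SE 0.14, adjusted p = 0.0475, 2.05% of all genes), with overlapping libraries. Of 24 leave-one-out fits, 22 lost that call (value 0.42 to 0.66 over all 24). Without the 3 SW480 Tet2CD libraries, which leaves 1 library in each SW480 Tet2CD group, the PER1 value was 0.58. RORA was 0.65 (SE 0.27, adjusted p = 0.246), and without the 3 SW480 Tet2CD libraries 0.69. Leaving out replicate 1 of SW480 Tet2CD with TGFB1 gave RORA 0.86, and leaving out replicate 2 of SW480 Tet2CD with RepSox gave it 0.93.

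**Figure D2:**
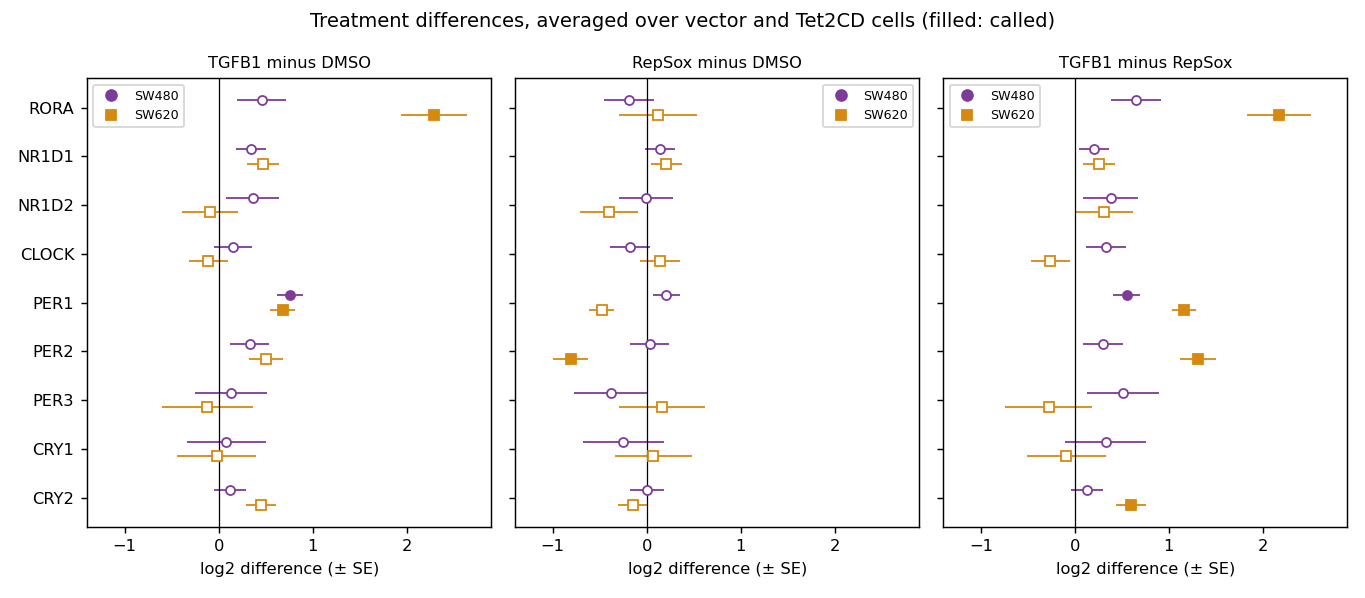
Fitted log2 differences (± SE) of the 9 genes between treatments in SW480 (purple circles) and SW620 cells (orange squares), each averaged over vector and Tet2CD cells with 4 libraries per treatment; filled symbols were called. RORA in SW620 cells is at 2.29 (TGFB1 minus DMSO) and 2.17 (TGFB1 minus RepSox), and PER2 at -0.81 with RepSox and 1.31 between TGFB1 and RepSox.

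CLOCK fell with Tet2CD in SW480 cells, and its change there differed from that in SW620 cells. This comparison asks what the catalytic domain of TET2 does to the clock genes. The 6 SW480 vector libraries had 40.0 to 63.1 CPM of CLOCK (48.7 and 59.9 with DMSO, 62.0 and 63.1 with TGFB1, 40.0 and 58.0 with RepSox), and the 6 Tet2CD libraries 18.2 to 35.0 CPM (18.4 and 32.0, 18.6 and 35.0, 18.2 and 25.1). The sets did not overlap, and the lower value of each Tet2CD pair was the library that stood apart. Over the treatments CLOCK was 2.21-fold lower (log2 -1.15, SE 0.17, 95% interval -1.51 to -0.79, adjusted p = 7.72e-05), and with DMSO alone 2.12-fold lower (-1.09, SE 0.29, adjusted p = 0.0352). Without the 3 libraries the differences were -0.88 (SE 0.13, adjusted p = 3.86e-05) and -0.78 (adjusted p = 0.0322). All 24 leave-one-out fits kept the call over treatments (-1.35 to -1.02), as did each of the 8 other settings (-1.49 to -0.79), whereas the DMSO call was lost in 8 of 24, among them without replicate 1 of SW480 Tet2CD with DMSO (adjusted p = 0.372) and without replicate 2 of SW480 vector with DMSO (0.254). In SW620 cells CLOCK had 32.7 ± 4.02 CPM with vector and 29.3 ± 3.89 CPM with Tet2CD (n = 6 each; -0.17, 95% interval -0.52 to 0.19, adjusted p = 0.926). The effect of Tet2CD differed between the lines by -0.98 (SE 0.24, adjusted p = 0.011), and by -0.72 without the 3 libraries (adjusted p = 0.00633). CLOCK was the only member called in that comparison, where 20.1% of all genes were.

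The other SW480 calls were smaller and depended on the 3 libraries. Over treatments, 4 of 9 members were called, where 54.5% of all genes were (29.2% higher, 25.3% lower): CLOCK, NR1D2 and PER1 lower and NR1D1 higher. Without the 3 libraries 2 of 9 were called, CLOCK lower and RORA higher, where 39.3% of all genes were. NR1D2, a REV-ERB receptor, had 65.7 ± 14.2 CPM with vector and 39.5 ± 17.5 CPM with Tet2CD (n = 6 each; -0.71, SE 0.23, adjusted p = 0.018), and -0.30 without the 3 libraries (adjusted p = 0.112), in which it had 28.2, 28.6 and 18.2 CPM. PER1 was -0.30 (SE 0.11, adjusted p = 0.0306) and -0.25 without them (adjusted p = 0.0796). NR1D1, the other REV-ERB receptor, was 0.38 (SE 0.13, adjusted p = 0.0208), 0.20 without them (adjusted p = 0.212) and 0.00 with an offset for GC content (adjusted p = 1). Its exons have 59.5% GC, and the 3 libraries had the higher mean GC of counted genes given above. PER1 exons have 62.6% GC, and PER1 was lower than in the partner in 2 of these 3 libraries. CRY2 exons have 57.8% GC, and CRY2 was lower in 1 of the 3. The members lower in all 3 have 40.4% (CLOCK), 41.0% (NR1D2), 44.2% (PER3), 44.7% (CRY1), 48.1% (RORA) and 55.0% (PER2). Any link between GC content and these shifts was not tested. The cause of the change with the offset was not tested.

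RORA itself did not pass with Tet2CD in SW480 cells when all libraries were used (0.14, SE 0.22, 95% interval -0.32 to 0.60, adjusted p = 0.605). The 6 vector libraries had a median of 35.8 CPM and the 6 Tet2CD libraries one of 41.3 CPM, within ranges of 22.4 to 69.9 and 26.0 to 63.0 CPM. By treatment the difference on the log2(CPM + 0.5) scale was 0.39 with DMSO, -0.44 with TGFB1 and 0.29 with RepSox. In the lower library numbers, which holds the 3 libraries, it was -0.28 over treatments, and in the higher numbers 0.44. Without the 3 libraries it was 0.46 (SE 0.16, adjusted p = 0.0251). On the log2(TPM + 1) scale it was -0.52 with all libraries (adjusted p = 0.176). SPARC rose in the same cells from 0.256 to 6.91 CPM in vector libraries to 48.5 to 88.9 CPM in Tet2CD libraries (30.2-fold, log2 4.92, SE 0.36, adjusted p = 9.13e-07), and it had 65.9, 74.6 and 48.5 CPM in the 3 libraries that stood apart, where RORA had 35.3, 28.6 and 26.0 CPM.

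CRY1 and PER3 showed the widest gap between partner libraries. CRY1 had 14.5, 7.04 and 1.21 CPM in the 3 libraries that stood apart (37, 17 and 2 expected counts) and 26.8, 30.6 and 25.7 CPM in their partners, close to the 23.4 to 32.5 CPM of SW480 vector cells. PER3 had 16.9, 12 and 4.85 CPM against 36.0, 44.9 and 28.6 CPM in the partners. Neither was called with Tet2CD over treatments (CRY1 -0.60, adjusted p = 0.155; PER3 -0.19, adjusted p = 0.62), and without the 3 libraries CRY1 was -0.04 and PER3 0.35 (adjusted p = 0.0519). CRY1 passed when replicate 2 of SW480 Tet2CD with TGFB1 (-1.11, adjusted p = 0.0121) or with RepSox (-1.83, adjusted p = 0.000761) was left out, as PER3 did without the latter (-0.85, adjusted p = 0.0328), and when no filter on low counts was used (0.00241).

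In SW620 cells Tet2CD changed no member beyond the threshold, either with DMSO (0 of 9, 0.0261% of all genes called) or over treatments (0 of 9, 0.314% called). edgeR gave no member an unadjusted p under 0.05 in either, against 416 and 1100 genes, and DESeq2 called none. The largest member difference was that of PER3 with DMSO, at 10.9 and 11.2 CPM with Tet2CD and 4.02 and 4.69 CPM with vector (1.33, SE 0.67, adjusted p = 1). That SE and the p-values of this paragraph rest on the spread over all libraries, the 3 SW480 Tet2CD libraries that stood apart included. Without those 3 the SW620 value of PER3 was 1.34. With DMSO in SW480 cells, 1 of 9 was called (CLOCK), where 6.76% of all genes were.

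**Figure D3:**
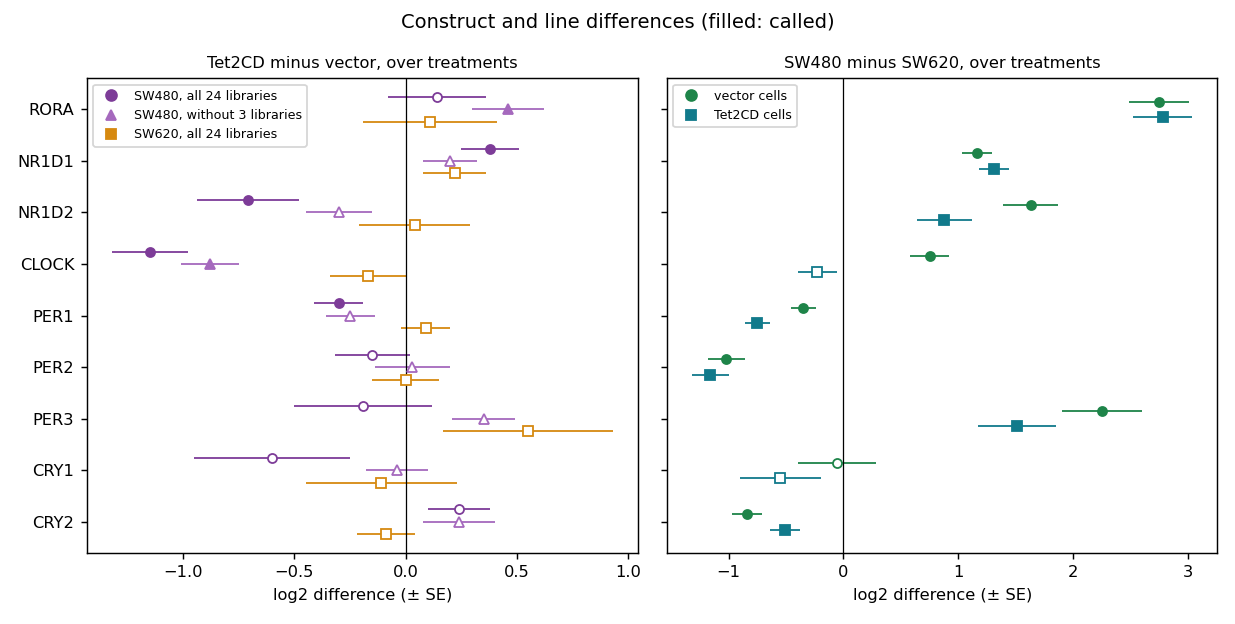
Fitted log2 differences (± SE) of the 9 genes: left, Tet2CD minus vector over treatments in SW480 cells with all libraries (circles) and without the 3 libraries that stood apart (triangles), and in SW620 cells (squares); right, SW480 minus SW620 in vector (circles) and Tet2CD cells (squares). Filled symbols were called; CLOCK is at -1.15 and -0.88 in SW480 cells and at -0.17 in SW620 cells, and RORA at 2.75 and 2.78 between the lines.

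Most members differed between the lines, in both directions. In vector cells over the treatments, the receptor genes RORA, NR1D1 and NR1D2, CLOCK and PER3 were higher in SW480, while PER1, PER2 and CRY2 were higher in SW620. RORA was 6.71-fold higher (log2 2.75, SE 0.26, adjusted p = 1.35e-07), PER3 4.76-fold (2.25, SE 0.35, adjusted p = 3.51e-05), NR1D2 3.09-fold (1.63, SE 0.24, adjusted p = 2.07e-05), NR1D1 2.23-fold (1.16, SE 0.13, adjusted p = 1.26e-06) and CLOCK 1.69-fold (0.75, SE 0.17, adjusted p = 0.000865). In these 5 genes the 6 SW480 and 6 SW620 vector libraries did not overlap. Nor did they for CRY2, with 17.3 to 25.4 CPM in SW480 and 25.9 to 45.5 CPM in SW620 vector libraries. The share of all genes without overlap was not counted. PER2 fell by 1.02 on the log2 scale from SW620 to SW480 (SE 0.16, adjusted p = 3.48e-05), CRY2 by 0.84 (SE 0.13, adjusted p = 3.74e-05) and PER1 by 0.35 (SE 0.11, adjusted p = 0.0107), the last lost in 5 of 24 leave-one-out fits (adjusted p up to 0.0855). CRY1 did not pass (-0.06, 95% interval -0.77 to 0.66). So 8 of 9 members were called, 5 higher and 3 lower, where 58.9% of all genes were (28.9% higher, 30.0% lower), and the members' share is read against that background.

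In Tet2CD cells 7 of 9 were called, where 71.6% of all genes were. The receptor genes and PER3 were again higher in SW480 (RORA 2.78, SE 0.26; NR1D1 1.31, SE 0.13; NR1D2 0.88, SE 0.24; PER3 1.51, SE 0.34) and PER1 (-0.75), PER2 (-1.16) and CRY2 (-0.51) lower. CLOCK was not called (-0.23, 95% interval -0.59 to 0.14). Without the 3 libraries RORA was 3.15, NR1D1 1.19, NR1D2 1.34, PER3 2.11, PER1 -0.65, PER2 -0.94 and CRY2 -0.47, all still called, and CLOCK was 0.09 (adjusted p = 0.569). On the TPM scale NR1D2 lay at -0.02 in this comparison, PER3 at 0.49 (adjusted p = 0.237) and CLOCK at -0.82 (adjusted p = 0.0304). Levels can be set between genes only per transcript length, and in TPM the members' medians over 12 libraries were highest in SW480 cells for NR1D1 (23.4 TPM), NR1D2 (18.0 TPM) and RORA (16.1 TPM). In SW620 cells PER1 led with 20.8 TPM while RORA had 3.49 TPM. The transcript length that the authors' tables assign to RORA had a median of 3703 bases in SW480 and 2966 bases in SW620 libraries. On the log2(TPM + 1) scale the line difference of RORA was 2.33 in vector and 1.37 in Tet2CD cells.

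**Figure D4:**
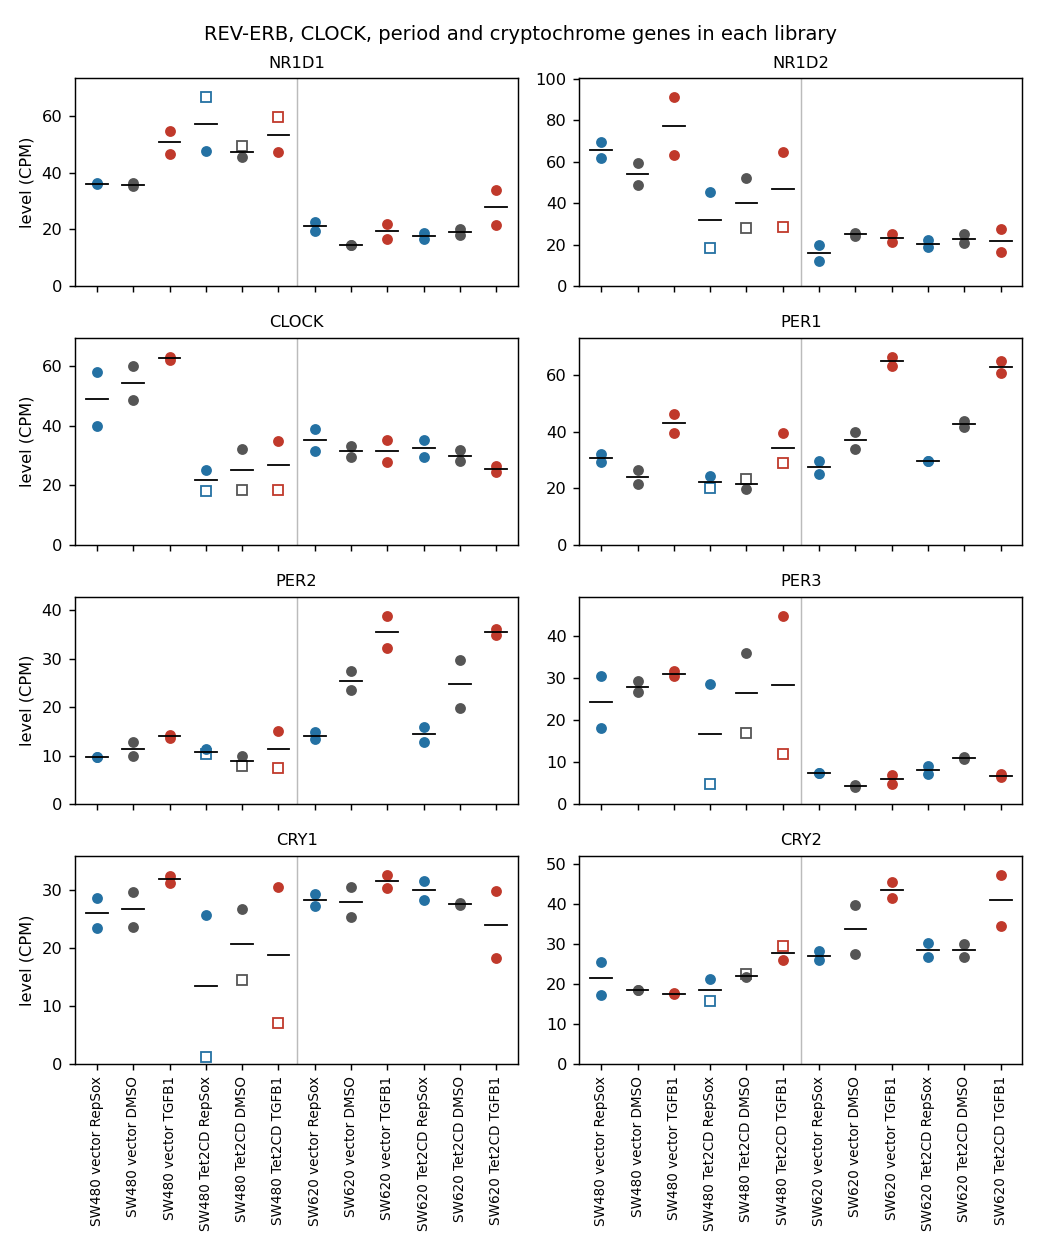
Level in CPM (linear axes from 0) of the other 8 genes in each library, by group along the x axis; blue, grey and red mark RepSox, DMSO and TGFB1, black bars the mean of 2 libraries, and open squares the 3 SW480 Tet2CD libraries that stood apart. CLOCK lies at 18.2 to 35.0 CPM in SW480 Tet2CD cells against 40.0 to 63.1 CPM in SW480 vector cells, and PER1 at 60.8 to 66.6 CPM in SW620 cells with TGFB1.

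Among 12 other clock loop genes, 9 were tested. In SW620 cells 5 were higher and 1 lower with TGFB1 than with DMSO (median of the list 0.80), where 8.31% of all genes were called higher and 7.27% lower. NFIL3, a D-box repressor, rose from 23.7 to 67.3 CPM (log2 difference 1.5, SE 0.16, adjusted p = 1.56e-05) and BHLHE40, an E-box repressor, from 190 to 565 CPM (1.58, SE 0.28, adjusted p = 0.00115). ARNTL, the partner of CLOCK and a target of the ROR receptors, rose from 11.9 to 23.7 CPM (0.99, SE 0.23, adjusted p = 0.00781). Between TGFB1 and RepSox, where 14.5% of all genes were called in either direction, 4 were higher (NFIL3 1.54, BHLHE40 2.07) and 1 lower, ARNTL2, a paralogue of ARNTL (-0.57, adjusted p = 0.0314). With RepSox against DMSO, NPAS2, a paralogue of CLOCK, rose (0.71, adjusted p = 0.00352). In SW480 cells 1 of the 9 was called with TGFB1 (NPAS2 0.72, adjusted p = 0.0143), where 1.05% of all genes were, and none with RepSox. Without the 3 libraries, BHLHE40 and NPAS2 were called higher and DBP lower with TGFB1 in SW480 cells. The share of all genes called in that fit is not given here, so these calls are not read as a result about the list. The TGFB1 response of NFIL3 differed between the lines (-1.06, adjusted p = 0.0283).

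With Tet2CD over treatments in SW480 cells, 2 of these 9 rose and 3 fell, where 29.2% of all genes were called higher and 25.3% lower. DBP, a D-box activator, rose by 1.66 on the log2 scale (from 15.9 to 49.8 CPM, SE 0.30, adjusted p = 0.000362), and its relative TEF rose from 30.8 to 39.1 CPM (0.35, adjusted p = 0.028). ARNTL2 fell from 110 to 55.6 CPM (-0.97, SE 0.15, adjusted p = 0.000116) and BHLHE40 from 394 to 201 CPM (-0.96, adjusted p = 0.00265). Without the 3 libraries DBP, TEF, ARNTL2 and BHLHE40 were the 4 called. No gene of the list was called with Tet2CD in SW620 cells, over treatments or with DMSO. With DMSO in SW480 cells none was called with all libraries, and ARNTL2 and BHLHE40 were lower without the 3. ARNTL2 had a Tet2CD effect that differed between the lines (-0.94, adjusted p = 0.00764). Between the lines, 5 of the 9 were higher in SW480 and 2 lower in vector cells (ARNTL2 1.45 higher, NPAS2 -1.35 and NFIL3 -0.54 lower), and 6 and 2 in Tet2CD cells, where 58.9% and 71.6% of all genes were called.

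Of 11 kinases, ubiquitin ligases and partners, 9 were tested. In SW480 cells 6 of these 9 fell with Tet2CD over treatments and none rose, where 54.5% of all genes were called, GSK3B (-0.65, adjusted p = 0.00282) and CSNK1A1 (-0.32, adjusted p = 0.00709) with the smallest p. Leaving out the 3 libraries, 3 fell, GSK3B, FBXW11 and CSNK1A1. In SW620 cells with TGFB1 against DMSO CSNK1A1 (0.37, adjusted p = 0.027) and CSNK1D (0.29, adjusted p = 0.0273), casein kinases that mark PER proteins, rose and TIMELESS, a replication fork protein, fell (-1.04, adjusted p = 0.00257). Of 8 corepressors and coactivators of the ROR and REV-ERB receptors, 7 were tested. NCOR1, the corepressor through which REV-ERB receptors act, fell from 328 to 119 CPM with Tet2CD in SW480 cells (-1.45, SE 0.19, adjusted p = 2.58e-05) and was the 1 gene of this list called with DMSO alone (-1.50, adjusted p = 0.0128), joined by NCOA2 without the 3 libraries. NCOA2 (-1.30, adjusted p = 0.00276) and EP300 fell too over treatments, and NCOR1, NCOA2 and EP300 were still called without the 3 libraries. The NCOR1 effect differed between the lines (-1.33, adjusted p = 0.00333).

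Of 14 genes known from liver and gut as ROR or REV-ERB targets, 7 were tested, among them ARNTL, NPAS2 and NFIL3 of the loop list. With TGFB1 in SW620 cells 5 rose and none fell (median 0.95), where 8.31% of all genes were called higher and 7.27% lower. NFIL3, ARNTL and NPAS2 are among these 5 and were already counted in the loop list. NFIL3 and ARNTL, given above, had the smallest p, and LPIN1, a lipid phosphatase gene, also rose (1.05, adjusted p = 0.00958), named here after its value was seen. In SW480 cells with Tet2CD over treatments, NFIL3 fell (-0.53, adjusted p = 0.00582) and CIDEC, a lipid droplet gene, rose from 1.91 to 3.78 CPM (0.99, adjusted p = 0.0433), and neither was called without the 3 libraries. Between the lines in vector cells, where 58.9% of all genes were called, 2 of these targets were higher in SW480 and 2 lower, as were 2 and 4 of the kinases and ligases and 1 and 2 of the corepressors and coactivators.

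The genes whose levels followed RORA most closely were found by Pearson correlation of log2 CPM over the 24 libraries, among 13885 genes. INSIG1 (0.97), MICAL2 (0.96), AL365205.1 (0.96), ECE1 (0.95) and CYP51A1 (0.95) came first. The libraries fall into 2 lines with different RORA levels, so these values mostly carry the line difference. After the mean of each line was taken away, AL365205.1 (0.91), INSIG1 (0.90), RIOK3 (0.89), PLEKHM1 (0.89) and WHAMM (0.88) came first. INSIG1 had 146 to 311 CPM in SW480 and 32.0 to 166 CPM in SW620 libraries. Among the members, PER2 (0.69), PER1 (0.68) and CRY2 (0.58) were nearest to RORA within the lines and CLOCK was at 0.05, while SPARC was at 0.08. The points share lines and treatments, and no test was made of these values.

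Counting could mix some members with their neighbours, because no source used here says whether strand was used. RORA shares 564 exon bases with RORA-AS1 on the opposite strand, NR1D1 263 with THRA, PER3 868 with UTS2, PER2 188 with AC012485.1, CRY1 94 with AC078929.1 and CLOCK 76 with TMEM165 (GENCODE 29).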

How the data were processed

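RNA was taken with TRIzol from cultured cells, and libraries were made with a TruSeq kit from 1 µg of total RNA. The authors trimmed the reads and counted them with RSEM and Bowtie. They deposited, per gene and library, expected counts, TPM and FPKM values. Expected counts were rounded and used for the main tests, the deposited TPM for an alternative, and the deposited FPKM not at all. The submitters' processing notes name the mouse build mm10, but all gene identifiers are human. The study mentions a GC normalization, and no source used here says whether it touched these values. The labels' treatment was followed; the study's supplement gives another duration and TGF-beta mixture.

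All 12 group means were fitted together in edgeR 4.0.16 (R 4.3.3) with TMM scaling and the filterByExpr filter, leaving 12 residual degrees of freedom. Quasi-likelihood F tests were two-sided, and p-values were Benjamini-Hochberg adjusted over 15302 genes in each of 17 comparisons. The SE was taken from the log2 difference and F, and the interval is 95%. Comparisons over treatments average both arms equally. DESeq2 1.42.0, limma 3.58.1 on log2(TPM + 1), other scaling, no filter, 1 line alone, a library-number term, a GC offset and leaving out libraries were alternatives. The fits were tested on simulated data. Total counts of 2146123 to 4410567 limit precision for RORA in SW620 cells, and SPARC there is at or under the floor of 3 counts.

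The 9 members and the lists were chosen with earlier results of these data known. From each list, up to 2 genes that rose and 2 that fell were named by smallest p, and TET2 and SPARC always; further list genes named beside counts of 5 or fewer were chosen after their values were seen. Counts cover every tested gene of a list, although a few that the rule would name are not reported here. Likeness to RORA used genes with a mean log2 CPM of at least 1. Promoters came from RefSeq (GRCh38.p14), and gene spans and exons from GENCODE 29 on GRCh38.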

Additional observations from a re-analysis of the deposited data

Results flagged for a closer look

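A pair of results differed between the lines by a test of the difference itself. The effect of Tet2CD on CLOCK was lower in SW480 than in SW620 cells by -0.98 on the log2 scale (SE 0.24, edgeR adjusted p = 0.011), and every leave-one-out fit kept that call (-1.19 to -0.86). The TGFB1 response of RORA was lower in SW480 than in SW620 cells by -1.83 (SE 0.44, edgeR adjusted p = 0.0401), where RORA started from 38.2 CPM with DMSO in SW480 and from 3.51 CPM in SW620 cells, and 17 of 24 leave-one-out fits lost it. Without the 3 SW480 Tet2CD replicate 1 libraries it was -1.71 (adjusted p = 0.00301).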

How the results depend on the processing

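With 2 libraries per group, single calls near the threshold depended on 1 library, and RORA in SW620 cells without TGFB1 rested on few counts. No paired analysis was possible because the labels give no replicate numbers shared between groups. Their library numbers are different in every sample, and a term for the lower against the higher numbers is among the settings that follow. Of 153 gene values, 31 were called. Direction and call were kept by 150 with DESeq2, 152 with relative log expression scaling, 151 with the library-number term, 147 with the GC offset, 145 with no filter, 143 without the 3 SW480 Tet2CD replicate 1 libraries, 140 with limma on TPM and, of 108 possible, 99 with the same line only. NR1D2 between the lines in Tet2CD cells was the value that reversed (-0.02 with limma on TPM, adjusted p = 0.967, against 0.88). The cause of these changes was not tested.

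The share of all genes called also changed between fits and is not set beside each count here. It is given above for some fits without the 3 libraries. Counts in this paragraph are therefore not read as results about the members. The number of members called changed by more than 1.5 times in these cases. For Tet2CD with DMSO in SW480 cells it went from 1 to 0 with the same line only and with limma on TPM (0 to 1 when leaving out 1 library). For Tet2CD over treatments in SW480 cells it went from 4 to 2 with the same line only and to 2 without the 3 libraries (2 to 6 when leaving out 1). For the difference of Tet2CD effects it went from 1 to 2 with no filter and with the GC offset (1 to 5). For TGFB1 against DMSO in SW480 cells it went from 1 to 0 with no filter, the GC offset, the same line only and limma on TPM (0 to 1). For TGFB1 against DMSO in SW620 cells it went from 2 to 4 with the GC offset, 5 with the same line only, 5 without the 3 libraries and 1 with limma on TPM (2 to 5). For RepSox against DMSO in SW620 cells it went from 1 to 2 with relative log expression scaling, the library-number term, the same line only, DESeq2 and without the 3 libraries, and to 0 with limma on TPM (0 to 2). For TGFB1 against RepSox in SW480 cells it went from 1 to 0 with no filter, the GC offset, the same line only and limma on TPM, and to 2 without the 3 libraries (0 to 4). For the difference of TGFB1 responses it went from 1 to 0 with limma on TPM (0 to 1), and for that of RepSox responses from 0 to 1 without the 3 libraries and with DESeq2. With log2(TPM + 1), 2 of the first 5 genes most like RORA were shared over the 24 libraries, and 1 of 5 with the line mean taken away.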
